A study of Mus musculus with 8 samples.

Results

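The genes described here are 6 Wnt ligands, Wnt4, Wnt5a, Wnt5b, Wnt6, Wnt7b and Wnt10a, and 4 feedback targets of the pathway, Axin2, Lgr5, Lef1 and Notum. They were chosen by name, and all 10 were matched by array rows that carry 1 gene symbol, of 22180 genes matched in this way. RNA was measured in 8 whole mammary tumors of mice that carry the MMTV-PyMT transgene, which drives the polyoma middle T antigen in mammary epithelium. Of these, 4 tumors came from mice with the MMTV-Cre transgene and floxed Mmp14 alleles, Mmp14(f/f), labelled conditional knockout (cKO), and 4 from Mmp14(f/f) littermates without Cre, labelled wild type (WT). All mice were congenic FVB/NJ and 3 to 4 months old, so that both groups share the oncogene and the floxed alleles and differ in the Cre transgene as well as in the targeted gene. The MMTV promoter acts mainly in mammary epithelium and is also known to act in some other cells, such as those of the salivary gland and the lymphoid lineage. Which cells of these whole tumors had recombined was not measured here. Each tumor gave 1 array, and values are log2 signals. In bulk tumors, fewer cells of a type and less RNA per cell cannot be told apart.

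Wnt proteins are secreted, lipid-modified ligands that bind Frizzled receptors together with Lrp5 or Lrp6. In the canonical branch this stops the destruction of beta-catenin, which then acts with TCF and LEF factors on target genes. Several of those targets feed back on the pathway: Axin2 is a scaffold of the destruction complex, Notum removes the lipid from Wnt ligands outside the cell, Lgr5 is a receptor for R-spondins that raise Wnt receptor levels, and Lef1 is itself a partner of beta-catenin. In the mouse mammary gland Wnt4 acts downstream of progesterone in side branching, and Wnt5a signals largely without beta-catenin and restrains ductal growth.

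Mmp14, the targeted gene, was lower in cKO tumors (7.44 to 7.98) than in WT tumors (8.86 to 9.31), by −1.40 on the log2 scale (SE 0.13, limma adjusted p = 0.0444), and the groups did not overlap. That call was lost with either block (adjusted p 0.354 with the replicate number and 0.0708 with arrays 1 to 4 and 5 to 8) and in 6 of 8 fits with 1 tumor left out, where the adjusted p ran up to 0.211 and the difference from −1.48 to −1.30. The luminal epithelial genes Krt8, Krt18 and Epcam had means of 10.2, 10.3 and 10.5 in cKO tumors and 10.4, 10.5 and 10.6 in WT tumors. Over the luminal list 13 of 14 measured markers had a lower mean in cKO, with a median difference of −0.19 and none past the threshold. Over the whole array, limma called 2 of 23521 rows, or 0.0085%, at an adjusted p of 0.05, and 9.68% had an unadjusted p under 0.05. The markers of dividing cells had a higher mean in cKO for 13 of 13 genes, with none past the threshold (smallest limma adjusted p 0.0795). Their mean deviation ran from 0.22 to 0.68 in cKO tumors and from −0.53 to −0.20 in WT tumors. Array medians lay between 3.645 and 3.713.

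None of the 10 genes passed the threshold, and for none did the values of the groups fail to overlap. Over all rows tested, 5.42% had groups that did not overlap. Of the 10 genes, 5 had a higher mean in cKO, against 56.5% of all rows, and 5 a lower one. The differences lay between −0.13 (Wnt10a) and 0.27 (Wnt6). Axin2 was counted by the brighter of its array rows, and its other row had a lower mean in cKO. The median difference was −0.02, against 0.02 over all rows tested. The smallest unadjusted p was 0.0780, for Wnt6. Only Wnt5a and Wnt5b had a mean signal of at least 5, and Wnt6, Notum and the second row of Lgr5 lay below the array median in every tumor. No detection call was used here, so a dim signal is not shown to be above background, and a fold of RNA can be larger than the difference printed.

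**Figure D1:**
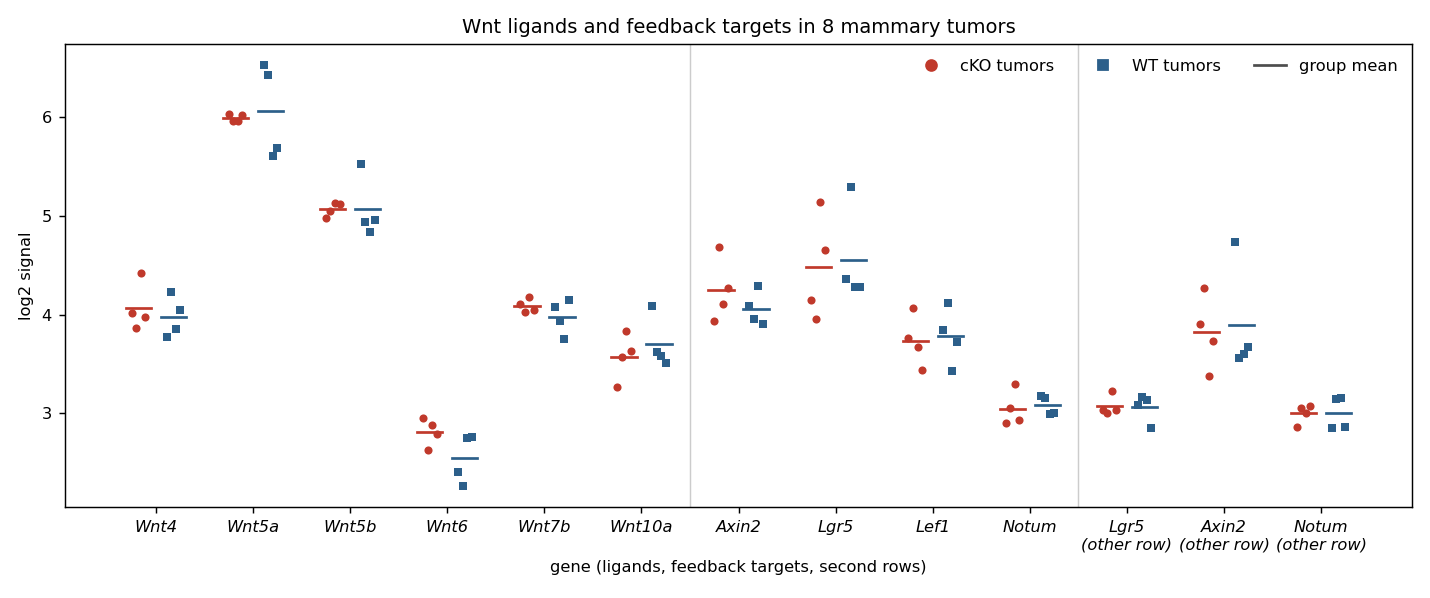
Log2 signal (vertical axis) of the 6 ligands, the 4 feedback targets and the second rows of Lgr5, Axin2 and Notum (horizontal axis), with 1 point per tumor, cKO circles left of WT squares, and bars for the group means. The groups overlap for every gene, and the 4 cKO tumors lie close together for Wnt5a (5.96 to 6.03) while the WT tumors spread from 5.61 to 6.53.

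Wnt5a was even across cKO tumors and uneven across WT tumors, a contrast picked out from its values and not tested. Its signals were 6.03, 5.96, 5.96 and 6.02 in cKO tumors 1 to 4, and 6.53, 6.43, 5.61 and 5.69 in WT tumors 1 to 4. The cKO tumors therefore lay between a higher pair of WT tumors and a lower pair. The means were 5.99 ± 0.04 in cKO and 6.06 ± 0.48 in WT (SD, n = 4 each). The difference was −0.07 (SE 0.21, 95% confidence interval −0.54 to 0.40), with a limma adjusted p of 0.943 and an exact two-sided permutation p of 0.686. On that interval the cKO signal was 68.9% to 132% of the WT signal. The sign depended on the arrays compared. With the array numbers given in the labels, the difference was −0.48 within arrays 1 to 4, which hold WT 1 and WT 2, and 0.34 within arrays 5 to 8, which hold WT 3 and WT 4. This turn was not particular to Wnt5a. Wnt4, Wnt5b, Wnt10a, Lgr5 and Notum also went from lower to higher in cKO between these sets of arrays. Lgr5 went from −0.78 to 0.62 and Wnt10a from −0.44 to 0.19. Wnt6, Wnt7b, Axin2 and Lef1 kept their sign. The share of all rows that turn between these sets was not counted, so these turns are not read as a result about the genes. The labels do not say what these array numbers stand for, and their part in these results was not tested. The 15 fibroblast markers all had a lower mean in cKO, with none past the threshold. Their mean deviation was −1.53 to 0.67 in cKO tumors and 0.05 to 0.53 in WT tumors, and their part in the Wnt5a value was not tested. Ror2, a receptor of Wnt5a, had a mean of 4.01 in cKO and 4.16 in WT (limma adjusted p 0.668).

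Wnt5b, the nearest relative of Wnt5a, had the same mean in both groups to 2 decimals. Its signals were 4.98, 5.05, 5.13 and 5.12 in cKO tumors and 5.53, 4.94, 4.84 and 4.96 in WT tumors. WT 1 was the highest of all 8, and the other WT tumors were lower than every cKO tumor. The difference was 0.0011 (SE 0.15, 95% confidence interval −0.33 to 0.33, limma adjusted p 0.999), and without WT 1 it was 0.15.

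Wnt4 signals were 4.02, 3.86, 4.42 and 3.98 in cKO tumors and 3.77, 4.23, 3.85 and 4.05 in WT tumors. The 2 sets were interleaved, with cKO 3 highest and WT 1 lowest. The difference was 0.10 (SE 0.15, 95% confidence interval −0.23 to 0.42, limma adjusted p 0.867). Wnt7b, a ligand made by mammary epithelium and also known from macrophages of this tumor model, had signals of 4.10, 4.03, 4.18 and 4.05 in cKO tumors and 4.08, 3.94, 3.76 and 4.15 in WT tumors. It lay in a narrow range in cKO and reached lower in WT. Its difference was 0.11 (SE 0.10, 95% confidence interval −0.12 to 0.33, limma adjusted p 0.764). Of 13 macrophage markers, 10 had a higher mean in cKO, with none past the threshold. The mean deviation of the 13 was 0.004 to 0.40 in cKO tumors and −0.43 to 0.07 in WT tumors, and their part in the Wnt7b value was not tested.

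Wnt6 and Wnt10a, epithelial ligands, lie close to each other on chromosome 1, with 2 annotated genes starting between them in the RefSeq table of GRCm38.p6. Wnt6 signals were 2.95, 2.63, 2.88 and 2.79 in cKO tumors and 2.40, 2.26, 2.75 and 2.76 in WT tumors. All cKO tumors except cKO 2 were above all WT tumors. The difference was 0.27 (SE 0.13, 95% confidence interval −0.04 to 0.57), the largest of the 10, with a limma adjusted p of 0.568 and an exact permutation p of 0.143. Arrays 1 to 4 alone gave 0.46 and arrays 5 to 8 alone 0.08. Wnt10a, a ligand known from skin appendages and teeth, had signals of 3.26, 3.57, 3.83 and 3.63 in cKO tumors and 4.08, 3.62, 3.58 and 3.51 in WT tumors. The highest value was again that of WT 1. The difference was −0.13 (SE 0.16, 95% confidence interval −0.48 to 0.23, limma adjusted p 0.838), and without WT 1 it was 0.0023. The neighbours showed no clear relation over the 8 tumors, with Pearson's r of −0.48 (exact permutation p 0.226) and Spearman's rho of −0.31 (p 0.462). Both signals were dim, with Wnt6 below the array median in every tumor and Wnt10a above it in only 2. Without WT 1 and WT 2, the tumors farthest from the Wnt6 median, r was −0.24.

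The feedback targets read the canonical branch from inside the cell, and 3 of the 4 have 2 rows on the array. For each, the row with the higher mean over the 8 arrays stood for the gene and the second row is given beside it. None of the tables used states the strand that a row measures, but row numbers follow strand. Of 16142 genes with 1 row and a known strand in the RefSeq promoter table, 99.5% were on the strand of most of the 20 rows nearest in number. Axin2 is on the plus strand. Of the 20 rows nearest to its brighter row (17271197), 1 belonged to a plus-strand gene, against 19 of 20 for its second row (17257801). For Lgr5 these counts were 0 of 20 for the brighter row and 19 of 20 for the second, and for Notum 1 of 20 and 19 of 20; neither gene is in the promoter table. Row number thus places the brighter Axin2 row on the strand opposite to the gene, and the second row on the gene's own strand. Results for Axin2 among the 10 genes use the brighter row, which may not measure Axin2 RNA. The strand of each row was not tested directly, so both are reported.

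The brighter Axin2 row had signals of 3.94, 4.68, 4.11 and 4.27 in cKO tumors and 4.09, 3.96, 4.29 and 3.90 in WT tumors. The second row had 3.91, 4.27, 3.38 and 3.73 in cKO tumors and 4.73, 3.56, 3.61 and 3.68 in WT tumors. On the second row WT 1 stood above every other tumor, and on the first it did not. The difference was 0.19 (SE 0.16, 95% confidence interval −0.17 to 0.55, limma adjusted p 0.738) on the brighter row and −0.07 (SE 0.28, 95% confidence interval −0.71 to 0.57, limma adjusted p 0.959) on the second. Without WT 1 the second row differed by 0.21. Over the 8 tumors the 2 rows had a Pearson's r of 0.29 and a Spearman's rho of 0.10, given as a description, so they do not give 1 reading of Axin2.

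Lgr5 spread most of the 10 genes. Its brighter row had signals of 4.15, 3.96, 5.14 and 4.66 in cKO tumors and 4.37, 5.29, 4.28 and 4.28 in WT tumors. The high values came from WT 2 and cKO 3, 1 in each group. The difference was −0.08 (SE 0.30, 95% confidence interval −0.76 to 0.61, limma adjusted p 0.959), or 59.0% to 152% of the WT signal, and without WT 2 it was 0.17. The second row lay between 2.86 and 3.23 in all 8 tumors and differed by 0.02 (SE 0.10). The rows had a Pearson's r of 0.66 and a Spearman's rho of 0.69, also as a description.

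Lef1 signals were 3.77, 4.06, 3.67 and 3.44 in cKO tumors and 3.85, 4.12, 3.43 and 3.72 in WT tumors. The groups covered nearly the same range, with the highest and the lowest tumor both in WT. The difference was −0.04 (SE 0.17, 95% confidence interval −0.43 to 0.34, limma adjusted p 0.957). Lef1 is also expressed in T cells, whose 9 measured markers had a mean deviation of −0.08 to 0.18 in cKO tumors and −0.28 to 0.12 in WT tumors. Notum was dim on both rows. Its brighter row had 2.90, 3.05, 3.29 and 2.93 in cKO tumors and 3.17, 3.15, 2.99 and 3.00 in WT tumors. All 8 values lay within the range that cKO tumors alone covered. The difference was −0.04 (SE 0.10, 95% confidence interval −0.27 to 0.20, limma adjusted p 0.943), and −0.0034 (SE 0.10) on the second row.

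**Figure D2:**
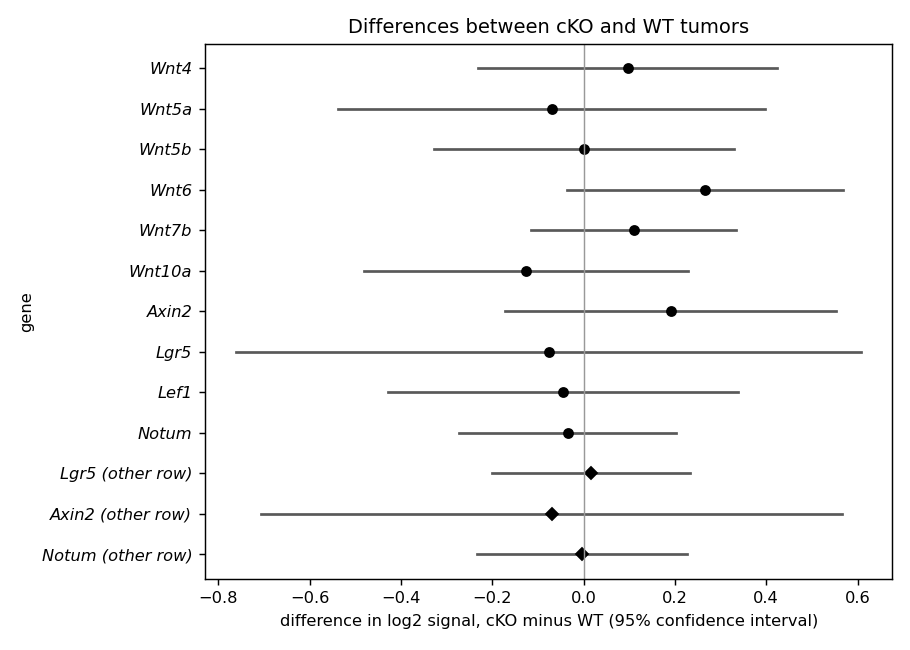
Difference in log2 signal between cKO and WT tumors (horizontal axis, cKO minus WT) for each gene (vertical axis), with 95% confidence intervals from limma; circles are the rows that stand for the 10 genes and diamonds the second rows. Every interval holds 0, the narrowest for the second Lgr5 row (−0.20 to 0.23) and the widest for the brighter Lgr5 row (−0.76 to 0.61).

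The precision of 4 against 4 tumors bounds what this comparison can show. At its standard error, each gene would have needed a difference of 0.92 (Wnt7b) to 2.81 (Lgr5) to be the next row past the threshold over all rows. Each 95% interval above holds for its own row alone, in a fit without blocks that takes the same variance for both groups. The intervals do not bound all the rows jointly at that level, and they are not limits of detection. A difference within an interval, or outside it but short of the one needed, would not have passed the threshold here.

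TCF and LEF factors are known to bind the motif CTTTGAT, with the core CTTTG, and these letters were searched for in promoters of the 10 genes. RefSeq windows of 250 bases before to 50 after a start (GRCm38.p6) were matched for 5 of the 10 genes, in 10 windows, among them Axin2 and Lef1 of the feedback targets. Both strands were searched, and each CTTTGAT also counts as a core. The longer motif was in 1 of the 10 windows, against 3.73% of 32851 windows of this length. The core was in 6 of 10, against 53.9%. The windows with a core were all of Lef1 or Wnt5b. Among them 2 Lef1 windows overlap and hold the same cores, so these are not separate promoters. The windows of Axin2, the most general of these targets, of Lef1, and of the Wnt5b start that holds the longer motif are shown, with the core on either strand (CTTTG or CAAAG) in capitals.
Axin2, chr11:108920099-108920398, plus strand: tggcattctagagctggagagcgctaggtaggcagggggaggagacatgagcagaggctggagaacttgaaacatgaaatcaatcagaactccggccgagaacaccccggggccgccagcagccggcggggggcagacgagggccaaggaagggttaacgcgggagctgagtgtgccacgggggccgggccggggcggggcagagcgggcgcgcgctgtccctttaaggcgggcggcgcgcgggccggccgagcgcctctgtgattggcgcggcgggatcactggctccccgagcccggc
Lef1, chr3:131110073-131110372, plus strand: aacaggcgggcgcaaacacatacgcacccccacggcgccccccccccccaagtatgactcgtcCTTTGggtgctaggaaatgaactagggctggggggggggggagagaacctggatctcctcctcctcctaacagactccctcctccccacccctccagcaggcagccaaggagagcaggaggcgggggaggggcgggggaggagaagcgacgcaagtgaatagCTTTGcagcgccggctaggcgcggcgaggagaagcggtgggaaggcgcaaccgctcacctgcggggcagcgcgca
Wnt5b, chr6:119449337-119449636, minus strand: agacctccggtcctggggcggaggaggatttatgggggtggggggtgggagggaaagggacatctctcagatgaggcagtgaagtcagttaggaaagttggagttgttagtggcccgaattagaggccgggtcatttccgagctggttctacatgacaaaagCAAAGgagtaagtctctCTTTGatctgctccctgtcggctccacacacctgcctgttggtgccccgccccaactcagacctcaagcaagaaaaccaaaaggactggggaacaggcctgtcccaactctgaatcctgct
The Axin2 window holds no core, the Lef1 window shown 2 and the Wnt5b window shown 2, of which 1 goes on to the longer motif. A match is a description of letters and not a binding site, and the absence of one says only that these letters are not in the window.

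The 10 genes were then compared with each other over the 8 tumors. Of 45 pairs, 31 had a Pearson's r above 0, and r ran from −0.71 to 0.79 with a median of 0.09. No pair passed after adjustment over the 45, with a smallest adjusted exact permutation p of 0.494 for Pearson's r and 0.898 for Spearman's rho. Without adjustment 4 pairs had a Pearson p under 0.05 and none a Spearman p under 0.05. The highest r was between Wnt5b and Wnt10a, at 0.79 (exact permutation p 0.0313), with a rho of 0.62 (p 0.115). Without WT 1 and WT 3, the tumors farthest from the Wnt5b median, it was 0.59. Wnt4 and Lgr5 had an r of 0.79 (exact permutation p 0.0217) and a rho of 0.52 (p 0.197), which fell to 0.13 without cKO 3 and WT 2, so that this relation rests on those tumors. Wnt10a and Notum had an r of 0.74 (exact permutation p 0.0329) and a rho of 0.67 (p 0.0831), and an r of 0.80 without cKO 1 and WT 1. Wnt5a and Wnt6 had an r of −0.71 (exact permutation p 0.0485) and a rho of −0.33 (p 0.428). Without WT 1 and WT 2 this r was 0.33, so that the negative value rests on those tumors. Wnt6 and Notum lay below the array median in every tumor, which limits what their pairs can show.

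No single tumor was highest for most of the 10 genes. Of them, 3 were highest in cKO 3 (Wnt4, Wnt7b and Notum) and 3 in WT 1 (Wnt5a, Wnt5b and Wnt10a), with 4 of all 13 rows highest in each of these tumors, while WT 3 was lowest for 4 genes. WT 1 differed from the rest in some skin and hair follicle markers. The 11 measured hair follicle markers had a mean deviation between −0.06 and −0.03 in cKO tumors, against 0.42 in WT 1 and between −0.13 and −0.05 in the other WT tumors. That of the 10 skin keratinocyte markers was between −0.10 and 0.02 in cKO tumors, against 0.45 in WT 1 and between −0.14 and −0.05 in the other WT tumors. Tchh, which encodes trichohyalin of the hair root sheath, was at 4.57 in WT 1 and between 1.91 and 2.29 in the other 7 tumors. Krt73, a root sheath keratin, was at 5.89 in WT 1 and between 3.92 and 4.46 in the others, and Dsg1a, a desmosomal cadherin of skin, at 4.65 in WT 1 and between 2.30 and 3.17 in the others. Of these marker lists, 4 of 11 and 6 of 10 genes were highest in WT 1. Krt71, Dsg4, Msx2, Ivl and Krt2 of the same lists were not. Msx2 was at 3.585 in cKO 3 and 3.576 in cKO 2, against 2.474 in WT 1. Both lists were dim, with no hair follicle marker and 1 of 10 skin keratinocyte markers at a mean of at least 5. The part of these markers in the Wnt values of WT 1 was not tested.

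**Figure D3:**
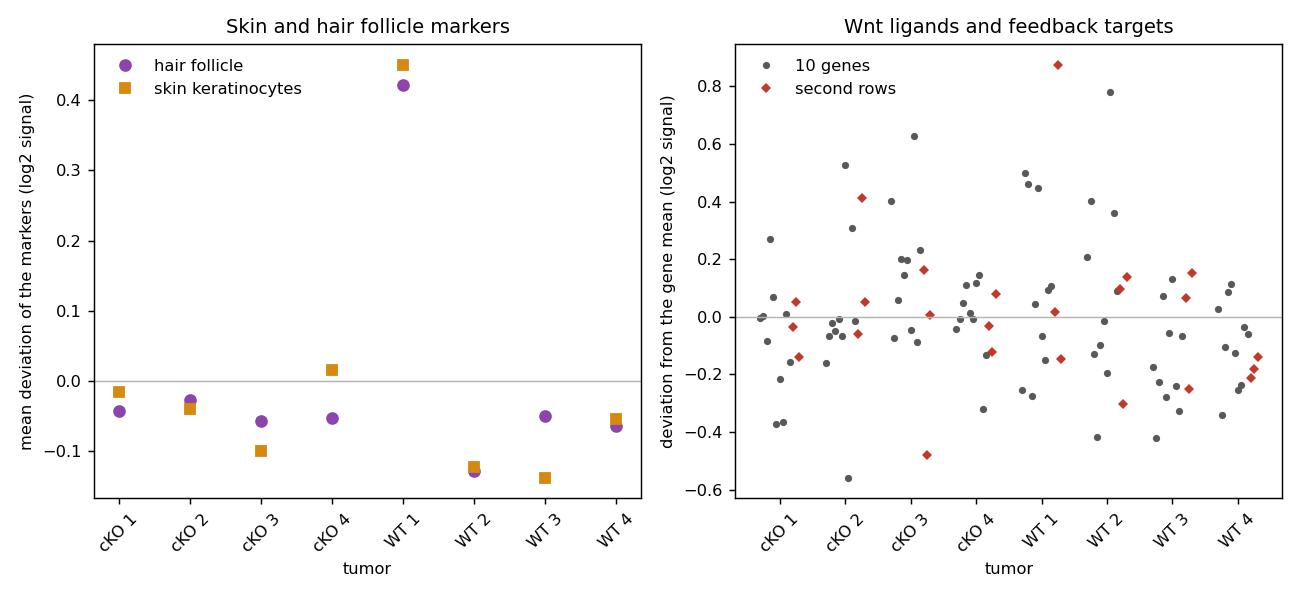
Left, mean deviation of the hair follicle markers (circles) and skin keratinocyte markers (squares) in each tumor, in log2 signal; right, log2 signal minus the mean of the 8 tumors for each of the 10 genes (circles) and the second rows (diamonds), in the order of the plot of signals by gene. Both marker lists are highest in WT 1, while the Wnt genes of that tumor lie on both sides of 0.

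The other genes of the pathway were read from lists by role. Of 100 genes listed, 96 had a row with 1 symbol, and none passed the threshold. Of these, 44 had a higher mean in cKO and 52 a lower one, with a median of −0.02. At an unadjusted p under 0.05 there were 10 of 96, against 9.68% of all rows, and 4 had groups that did not overlap, against 5.42%.

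Among ligands and their secretion, differences were small. The 13 other Wnt ligands had a mean signal under 5 throughout and differed by −0.07 to 0.17, with a median of 0.04. The smallest p was that of Wnt16, with a difference of 0.17 (limma adjusted p 0.652). Wnt8a and Wnt1 came next by p, with differences of 0.15 and 0.08. The 6 secretion genes were all above 5. Porcn, which attaches the lipid to Wnt proteins, differed by −0.02 (SE 0.08), and Wls, which carries them to the surface, by 0.02 (SE 0.10). Tmed5, Vps35 and Snx3, which act in trafficking, were at −0.17, 0.12 and 0.06.

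Receptors held the smallest p of the pathway. Fzd3, a Frizzled receptor, had signals of 6.77, 6.73, 7.18 and 6.88 in cKO tumors and 6.12, 6.48, 6.44 and 6.19 in WT tumors. All cKO tumors were above all WT tumors. The difference was 0.58 (SE 0.13, limma adjusted p 0.200, exact permutation p 0.0286, the smallest that 4 against 4 allows), and it did not pass. Fzd1 was at −0.30 (SE 0.10, limma adjusted p 0.415), with every cKO tumor (6.795 to 7.207) below every WT tumor (7.211 to 7.394), by a narrow gap. Ptk7, a co-receptor, was at −0.19, the co-receptors Lrp5 and Lrp6 at −0.12 and −0.08, and Fzd7 at 0.14. Of the 16 receptors, 10 had a higher mean in cKO, with a median of 0.05.

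In the R-spondin module, none of 8 genes had an unadjusted p under 0.05. Lgr4, a relative of Lgr5, was at −0.18, and the ligases that remove Wnt receptors, Rnf43 and Znrf3, at 0.03 and −0.14. Rspo1 was at 0.11. Rspo3, an R-spondin, was at 0.60 (SE 0.46), with 5.38 in cKO 2 and no other tumor above 3.96, and the difference was 0.13 without cKO 2.

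Secreted and membrane inhibitors had a median of −0.11, and 10 of 16 had a lower mean in cKO. Apcdd1, a membrane inhibitor and target of the pathway, had signals of 4.54, 4.12, 3.79 and 4.59 in cKO tumors and 5.07, 5.25, 4.66 and 4.84 in WT tumors. Every cKO tumor was below every WT tumor, with a difference of −0.70 (SE 0.20, limma adjusted p 0.315). Kremen1, a receptor for Dkk proteins, was at −0.35 (SE 0.11, limma adjusted p 0.379), also without overlap, and Dkk3 at −0.44 (SE 0.16). Wif1, which binds Wnt ligands and is named here because of its values, had the largest difference of the pathway and was also the most uneven. Its signals were 6.30, 5.36, 10.5 and 9.75 in cKO tumors and 5.32, 6.90, 6.61 and 5.81 in WT tumors. Only cKO 3 and cKO 4 were above the WT tumors, and cKO 2 was near the lowest of them. The difference was 1.81 (SE 1.07, 95% confidence interval −0.60 to 4.22, limma adjusted p 0.627), at −0.27 within arrays 1 to 4 and 3.90 within arrays 5 to 8.

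Inside the cell, Ctnnb1, which encodes beta-catenin, differed by 0.08 (SE 0.10), and Axin1 by −0.16 (SE 0.10). Of the 13 measured genes of beta-catenin destruction and of the Dishevelled family, 10 had a lower mean in cKO, with a median of −0.04; Dvl3, a Dishevelled protein, was at −0.33 (limma adjusted p 0.434), Apc at −0.24 and Dvl1 at −0.29. Tcf7l2, a TCF factor, was at −0.63 (SE 0.19, limma adjusted p 0.352), with 7.31 to 7.92 in cKO tumors and 7.77 to 8.62 in WT tumors. Its co-factors Bcl9l and Pygo2 were at −0.25 and −0.15. Tcf7 had no row with 1 symbol.

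The other target genes had a median of −0.02 over 14 measured, 6 with a higher and 8 with a lower mean in cKO. Nkd1, a feedback inhibitor that binds Dishevelled, was at −0.42 (SE 0.15, limma adjusted p 0.430), with a mean of 3.12 in cKO and 3.54 in WT. Tnfrsf19, a receptor of the TNF family, was at 0.86 (SE 0.38, limma adjusted p 0.511), with 8.51 in cKO 3, and at 0.43 without that tumor. The cyclin gene Ccnd1 was at 0.44 (SE 0.35), with 10.7 in cKO 2, and at 0.03 without that tumor.

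**Figure D4:**
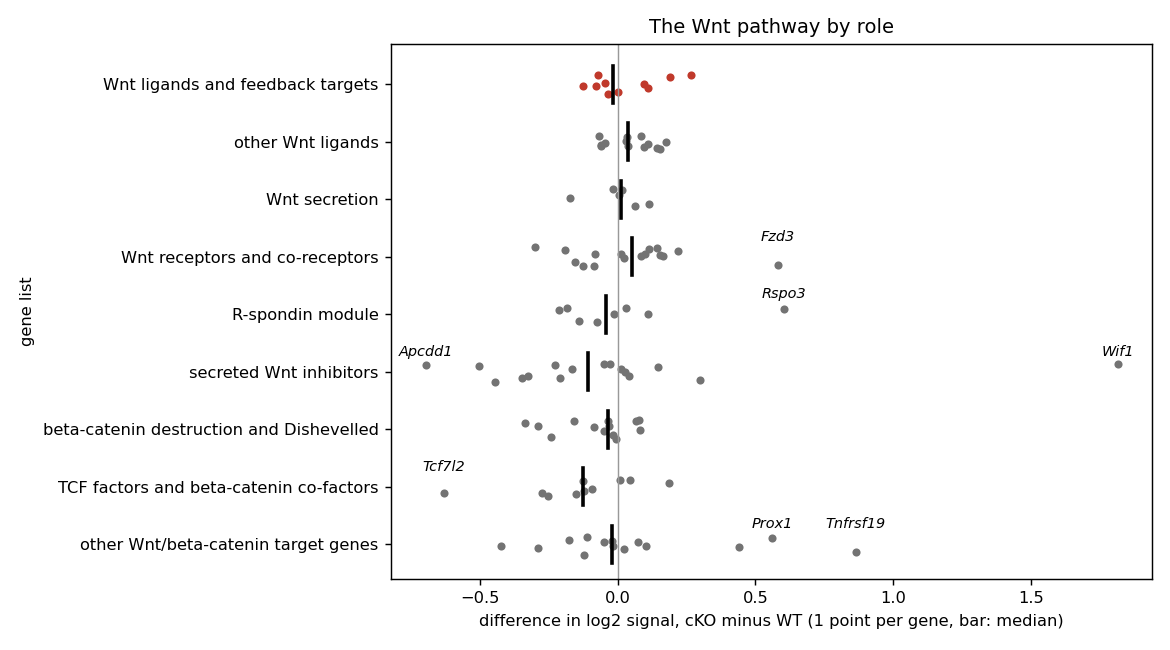
Difference in log2 signal, cKO minus WT (horizontal axis), for each measured gene of the Wnt pathway by role (vertical axis), with the 10 Wnt ligands and feedback targets in the top line; vertical bars are medians and names mark genes beyond 0.55 in either direction. No gene shown passed the threshold over all rows, and the list medians lie between −0.12 and 0.05.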

How the data were processed

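Total RNA of 8 flash-frozen tumors was measured on Affymetrix mouse gene arrays from 400 ng of RNA each, according to the labels. Values were deposited as log2 signals, with 1 value for each row and tumor; per the submitters' processing notes the authors used RMA and limma, with versions and parameters not given in the sources used here. Of 41345 rows, 23521 had 1 symbol in the platform annotation, updated by gene identifier to RefSeq (GRCm38.p6). A linear model without covariates was fitted to all 23521 (cKO minus WT, two-sided; limma 3.58.1, R 4.3.3), with Benjamini-Hochberg adjustment over all of them and a threshold of 0.05. The test was checked on simulated data. Single genes also got an exact two-sided permutation test over the tumors, in scipy 1.17.1. Genes with several rows were represented by the brightest row on average.

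A marker list's mean deviation in a tumor averages, over its genes, the log2 signal less the gene's mean in all 8 tumors. Pathway genes named are the 3 with the smallest p per list and a fixed set of core genes; for each member, the 2 genes most like it were named among protein-coding genes with a mean of at least 5. The members and lists were chosen with earlier results of these data known. The labels call the tumors biological replicates. No 2 arrays shared more than 0.058% of values. Precision is limited by the number of arrays. Alternatives were rescaling, a filter on dim rows, other rows, another variance prior, blocks and leaving out each tumor.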

Additional observations from a re-analysis of the deposited data

Results flagged for a closer look

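Groups of 4 tumors were searched for a tumor far from the others, in 110 groups: those of Mmp14, the 10 genes and the second rows, the named pathway genes with Wif1, and the markers Krt8, Krt18, Epcam, Tchh, Krt73 and Dsg1a. Of these, 10 held such a tumor. By chance about 1 in 20 groups would pass this rule. Wif1, Tchh, Krt73 and Dsg1a are described above for their values in these tumors, so the count cannot be compared with that rate. Among the feedback targets, WT 2 was highest for the brighter Lgr5 row, at 5.29 against 4.28 to 4.37 in the other WT tumors. On the second Lgr5 row cKO 3 was highest, at 3.23 against 3.01 to 3.04 in the other cKO tumors. WT 1 was highest on the second Axin2 row, at 4.73 against 3.56 to 3.68 in the other WT tumors. In the rest of the pathway, Ccnd1 stood out in both groups, at 10.7 in cKO 2 against 8.92 to 9.20 in the other cKO tumors, and at 9.34 in WT 4 against 8.88 to 8.93 in the other WT tumors. Axin1 was lowest in cKO 4, at 6.16 against 6.48 to 6.54 in the other cKO tumors. Lrp5 was lowest in WT 2, at 9.24 against 9.43 to 9.45 in the other WT tumors. Among the markers, Krt8 was highest in cKO 2, at 10.7 (10.1 in each of the other cKO tumors), Tchh in WT 1, at 4.57 against 2.04 to 2.29 in the other WT tumors, and Krt73 in WT 1, at 5.89 against 4.07 to 4.25 in the other WT tumors.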

How the results depend on the processing

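No alternative brought any of the 10 genes or of the named pathway genes past the threshold, over 155 and 537 values, with adjusted p-values from 0.419 and from 0.147 upward. The count of 2 rows over the array was 8 with all rows tested, 1 with arrays 1 to 4 and 5 to 8 as a block, and 0 to 3 with 1 tumor left out; it was 0 without cKO 4 or without any 1 WT tumor and 1 without cKO 2, with 1597 to 2773 rows at an unadjusted p under 0.05. With the replicate number as a block it was 0, with 1898 rows at an unadjusted p under 0.05. Same-numbered tumors shared no deviation throughout (r −0.02, −0.20, 0.29 and −0.25 for numbers 1 to 4), so the numbers are not taken to pair them. Mmp14 differed by −1.40 with either block, with an adjusted p of 0.354 with the replicate number and 0.0708 with the array numbers, and by −1.48 to −1.30 with 1 tumor left out (adjusted p 0.0429 to 0.211, above the threshold except without cKO 1 or cKO 3). With 1 tumor left out the sign of 7 of the 10 genes turned, with no such count over all rows beside it. Their ranges were −0.0213 to 0.181 for Wnt4, −0.222 to 0.0849 for Wnt5a, −0.0747 to 0.155 for Wnt5b, −0.213 to 0.0023 for Wnt10a, −0.298 to 0.170 for Lgr5, −0.161 to 0.0682 for Lef1 and −0.119 to 0.0115 for Notum; Wnt6, Wnt7b and Axin2 kept a higher mean in cKO, from 0.17 to 0.34, 0.04 to 0.17 and 0.05 to 0.29. With all 8 tumors, the second rows of Lgr5 (0.0168) and Axin2 (−0.0702) had the sign opposite to that of their brighter rows. With 1 tumor left out, the signs of the second rows of Lgr5, Axin2 and Notum each turned in some fits. The median of the 10 was between −0.07 and 0.08 with 1 tumor left out, and 0.0040 after quantile normalization. Of the pathway genes, the ranges that crossed 0 were −0.0135 to 0.168 for Snx3, −0.0513 to 0.0111 for Porcn, −0.0419 to 0.0904 for Wls, −0.178 to 0.0189 for Lrp6, −0.250 to 0.0111 for Znrf3 and −0.0884 to 0.120 for Rnf43. Dim signals limit what 8 of the 10 genes can show.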

Other observations

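Genes with patterns most like each of the 10 over the 8 tumors were named as a description, among at most 9439 protein-coding genes, so that high values of Pearson's r are found by selection alone. For Wnt10a these were Zmynd11 (0.97) and Plcg1 (0.97), for Wnt5b Phf20 (0.97) and Cdk5rap2 (0.92), and for Wnt5a Itgb8 (0.93) and Fam50a (0.91). For Wnt4 they were Fancg (0.95) and Nudt13 (0.94), for Wnt6 Leo1 (0.94) and Fdft1 (0.92), and for Wnt7b Crlf2 (0.91) and Ccdc130 (0.91). For the feedback targets they were Thap12 (0.95) and Tgds (0.94) with the brighter Axin2 row, Ube2n (0.95) and Tnf (0.94) with Lgr5, Prkra (0.96) and Prpf40b (0.95) with Lef1, and Ranbp6 (0.92) and Bcorl1 (0.92) with Notum.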
